A study of Mus musculus with 4 samples.

Results

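Transcripts of 9 genes of zinc handling were followed in MMTV-Neu mammary tumours without AXL and in such tumours with the gene intact. They were the metallothionein genes Mt1, Mt2 and Mt3, the metal-sensing transcription factor gene Mtf1, the zinc exporter genes Slc30a1 and Slc30a4, and the zinc importer genes Slc39a6, Slc39a10 and Slc39a14. The 9 genes are 9 of the 38293 gene rows in the count files and were found by matching Ensembl identifiers to symbols. They were chosen because Mt1 and Mt2 were lower in the knockout libraries of these data, so the difference between the genotypes is described for them and no p-value or call is given.

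The AXL KO group held 2 tumour libraries, labelled AXL-/- in the study design, and the WT group held 2, labelled AXL+/+. All 4 came from FVB mice with the MMTV-Neu transgene, in which a mammary tumour virus promoter drives the Neu (Erbb2) oncogene in mammary epithelium, so the controls carry the oncogene too. The cells in which AXL was deleted, the ages of the mice and whether replicates were separate animals are not given in the labels, so spread between replicates may in part be technical. RNA came from whole tumours, in which fewer cells of a type and less RNA per cell cannot be told apart.

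Metallothioneins are small cysteine-rich proteins that bind zinc and copper and buffer the free metal in the cell. When zinc rises, the zinc finger factor MTF-1 binds short metal response elements in promoters and turns on Mt1, Mt2 and the exporter gene Slc30a1, while it holds down the importer gene Slc39a10. Metallothionein genes also respond to glucocorticoids, inflammatory cytokines, oxidants and low oxygen. SLC30 proteins move zinc out of the cytosol, and SLC39 proteins move it in.

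The sequences before the start sites of Mt1, Mt2 and Slc30a1 are shown because these genes share the response to MTF-1 while their levels in the tumours differed. Each window runs from 250 bases before to 50 bases after a RefSeq start site on build GRCm38.p6. Capitals mark matches to the core of the metal response element, searched as TGCACNC and TGCGCNC on both strands. The Mt1 window is chr8:94178839-94179138, the Mt2 window chr8:94172368-94172667 and the Slc30a1 window chr1:191906531-191906830, all on the plus strand.
Mt1: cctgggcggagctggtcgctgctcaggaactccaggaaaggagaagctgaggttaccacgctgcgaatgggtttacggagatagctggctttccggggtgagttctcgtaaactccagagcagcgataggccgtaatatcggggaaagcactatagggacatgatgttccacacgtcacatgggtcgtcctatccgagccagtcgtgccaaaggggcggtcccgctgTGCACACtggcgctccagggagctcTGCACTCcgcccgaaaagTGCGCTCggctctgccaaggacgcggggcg
Mt2: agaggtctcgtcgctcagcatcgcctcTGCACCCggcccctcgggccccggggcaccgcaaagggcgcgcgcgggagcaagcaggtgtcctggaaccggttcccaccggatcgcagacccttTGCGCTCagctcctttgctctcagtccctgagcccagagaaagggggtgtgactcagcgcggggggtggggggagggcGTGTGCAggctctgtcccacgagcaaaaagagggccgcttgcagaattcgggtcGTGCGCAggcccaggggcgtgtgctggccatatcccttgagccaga
Slc30a1: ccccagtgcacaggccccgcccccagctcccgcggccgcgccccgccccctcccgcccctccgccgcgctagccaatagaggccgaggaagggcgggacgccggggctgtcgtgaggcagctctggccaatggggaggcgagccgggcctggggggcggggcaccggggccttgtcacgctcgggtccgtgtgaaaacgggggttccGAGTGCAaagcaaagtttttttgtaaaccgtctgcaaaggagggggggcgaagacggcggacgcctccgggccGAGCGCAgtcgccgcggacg
The Mt1 window held 3 matches, the Mt2 window 4 and the Slc30a1 window 2. The Slc30a4 window held 3, the Mt3 window 1, and those of Mtf1 and Slc39a10 held 0. For Slc39a6 and Slc39a14 no window was available. Of 32851 promoter windows of this length, 25.7% held at least 1 match and 1.97% held 3 or more. A match is a likeness of letters and shows no binding. The 3 matches of Mt1 lay at −23, 2 and 20 bases from the RefSeq start, and those of Mt2 at −223, −128, −50 and 4. These positions depend on the start taken. In GENCODE the Mt2 gene starts at 94172664, close to the end of its window at 94172667. The Mt1 gene starts at 94179082, and its annotated exons cover 1246 bases, against 549 bases in its first-numbered spliced transcript. Where that spliced transcript starts was not compared with the window. The Mt1 and Mt2 windows may thus not cover like stretches of promoter, and their match counts are not compared. Mt1 and Mt2 lie 5514 bases apart on chromosome 8 in a cluster with Mt3 and Mt4.

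**Figure D1:**
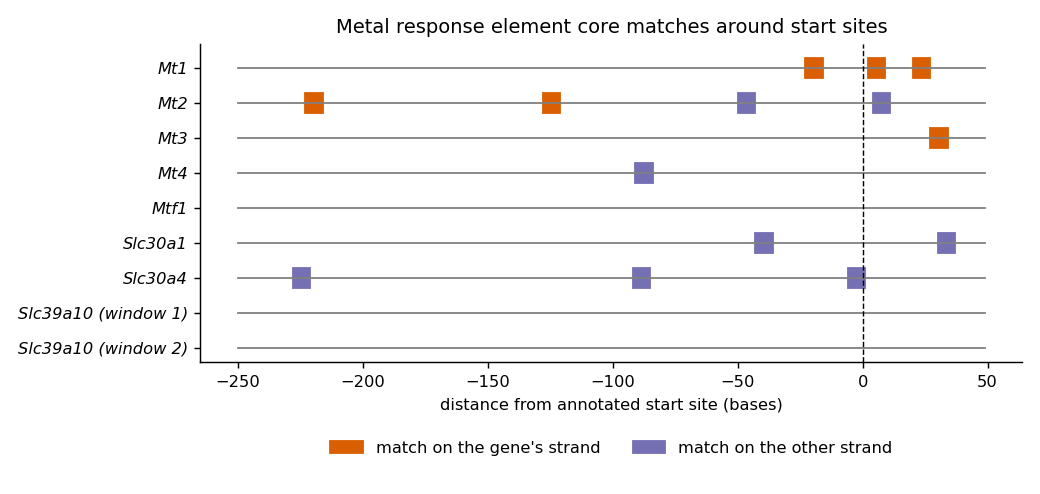
Matches to the metal response element core in windows around annotated start sites. The x axis gives the distance from the start site in bases, each grey line is 1 window, and coloured boxes are 7-base matches on the gene's strand or the other. Mt1 has 3 matches close to the RefSeq start and Mt2 has 4 spread over the window, while Mtf1 and the 2 windows of Slc39a10 have 0. Distances depend on the start taken.

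Between 18929743 and 33131739 reads were counted in genes per library. The unit of expression is CPM, reads of a gene relative to TMM-scaled library size. Axl, the targeted gene, was at 4.75 and 4.89 CPM in AXL KO and at 61.8 and 35.2 CPM in WT. WT replicate 2 stood apart from the other libraries. Its low-oxygen target genes lay 1.46 above their mean over the 4 libraries on the log2 scale, against −0.29 and −0.69 in AXL KO and −0.48 in WT replicate 1. AXL KO replicate 2 was the only library with its prefix in the sample descriptions, and values without it are those within the shared prefix. With edgeR's quasi-likelihood test and a threshold of 0.05 for the adjusted p, 0 of 14330 genes were called (0%). An unadjusted p below 0.05 was reached by 314 genes (2.19%). Limma-voom also called 0, and DESeq2 called 16 genes (0.112%). Of the 9 genes, 8 had enough reads to enter the fit across all genes and 1, Mt3, did not.

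Mt2 had the largest difference of the 9 genes, with transcripts 3.83-fold lower in AXL KO. Mt2 (ENSMUSG00000031762, chromosome 8, 94172664 to 94173568, plus strand) had 436 and 456 reads in AXL KO replicates 1 and 2, against 964 and 1842 reads in WT replicates 1 and 2. Its level was 23.3 and 13.7 CPM in AXL KO, against 45.1 and 96.4 CPM in WT. Both knockout libraries lay below both WT libraries, and the WT libraries differed from each other about as much as WT replicate 1 differed from the nearer knockout. The log2 difference was −1.94 (standard error 0.46). Without WT replicate 2 it was −1.29, and without WT replicate 1 it was −2.38.

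Mt1 encodes the other widely expressed metallothionein and was 1.99-fold lower in AXL KO. Mt1 (ENSMUSG00000031765, chromosome 8, 94179082 to 94180327, plus strand) was at 81.8 and 63.4 CPM in AXL KO, against 122 and 167 CPM in WT. The groups did not overlap, and WT replicate 2 was again the highest library. The log2 difference was −0.99 (standard error 0.24), and it ran from −1.19 to −0.75 with 1 library left out. Without AXL KO replicate 2, within the shared prefix, it was −0.83 for Mt1 and −1.62 for Mt2.

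Reads of related genes can be assigned to the wrong copy where their sequences are alike, so the Mt1 and Mt2 reads were also added up. The first-numbered spliced GENCODE transcripts, of 549 bases for Mt1 and 511 bases for Mt2, were identical at 65.9% of the aligned positions, and their longest identical run was 20 bases. The sum was 105 and 77.1 CPM in AXL KO, against 167 and 263 CPM in WT. It averaged 91.1 ± 19.8 CPM in AXL KO and 214.9 ± 68.1 CPM in WT (SD, n = 2 each), which is 2.36-fold lower in AXL KO. Against WT replicate 1 alone the knockout mean was 1.83-fold lower.

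The balance between the 2 genes differed as well, a measure that does not depend on library scaling. Mt2 made up 22.2% of the Mt1 and Mt2 reads in AXL KO replicate 1 (exact 95% binomial interval 20.4% to 24.1%) and 17.7% in AXL KO replicate 2 (16.3% to 19.3%). In WT it made up 27.0% in replicate 1 (25.6% to 28.5%) and 36.7% in replicate 2 (35.3% to 38.0%). Both knockout shares lay below both WT shares, and the 2 WT libraries lay further apart than the nearest libraries of different genotype. The intervals cover counting error only, and the share follows from the same contrast by which the genes were chosen.

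**Figure D2:**
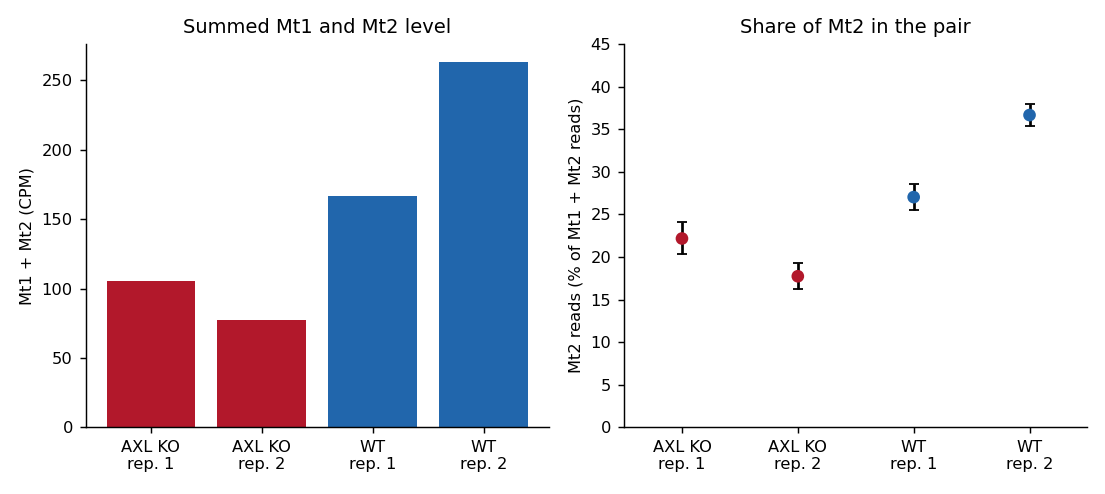
Left, summed Mt1 and Mt2 level in CPM for each library. Right, Mt2 reads as a percentage of Mt1 and Mt2 reads, with exact 95% binomial intervals as bars. The AXL KO libraries (red) sit at 105 and 77.1 CPM and the WT libraries (blue) at 167 and 263 CPM, and the Mt2 share is 22.2% and 17.7% in AXL KO against 27.0% and 36.7% in WT.

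Mt3, best known as the metallothionein of the brain, had 1 read in each AXL KO library, and 0 reads in WT replicate 1 and 1 in WT replicate 2. The 0 in WT replicate 1 allows a level of up to 0.141 CPM (3 counts). Mt4, known from stratified epithelia, had 0 reads in all 4 libraries, which allows up to 0.0905 to 0.158 CPM. No fold is given for either, and nearly all metallothionein reads of these tumours were those of Mt1 and Mt2.

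Genes beside the cluster did not share the pattern as a block. Within 250000 bases on each side, 10 other genes were tested, 5 with a positive and 5 with a negative log2 difference (median −0.01, against −0.0019 over all tested genes). Nup93, a nuclear pore gene and the next tested gene after Mt1, was at 15.1 and 19.8 CPM in AXL KO, against 24.9 and 27.9 CPM in WT (log2 difference −0.59). It was the 1 neighbour with both knockout libraries below both WT libraries, and 2 had them above, where 14.5% and 14.7% of all tested genes did so. Of these 2, 9330175E14Rik was at 9.03 and 7.95 CPM in AXL KO, against 5.19 and 0.419 CPM in WT, and its log2 difference of 1.58 was the largest in size among the 10 neighbours. The other, Gm15889, was at 1.23 and 0.81 CPM in AXL KO, against 0.608 and 0.628 CPM in WT. Gnao1 had the largest negative log2 difference of the 10 neighbours, −0.98, with overlapping groups. It was at 10.5 and 9.78 CPM in AXL KO, against 6.59 and 33.5 CPM in WT. Like Mt1 and Mt2, Gnao1 was highest in WT replicate 2. Herpud1, a gene of the endoplasmic reticulum stress response, was at 255 and 292 CPM in AXL KO, against 280 and 196 CPM in WT. The window was chosen after the values of Mt1 and Mt2 were known.

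Mtf1 did not differ beyond the spread between libraries. Mtf1 (ENSMUSG00000028890, chromosome 4) was at 24.1 and 29.2 CPM in AXL KO, against 28.4 and 21.05 CPM in WT. The groups overlapped, and the log2 difference was 0.11 (standard error 0.25). It was −0.09 without WT replicate 2 and −0.05 without AXL KO replicate 2, so its sign rested on single libraries. Its locus overlaps 1110065P20Rik on the other strand, which had 12.2 to 14.4 CPM.

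Both exporter genes had nearly the same level in the 2 groups. Slc30a1 (ENSMUSG00000037434, chromosome 1), whose product exports zinc through the plasma membrane, was at 22.7 and 23.4 CPM in AXL KO, against 27.3 and 21.5 CPM in WT. The AXL KO values lay between those of the WT libraries, and the log2 difference was −0.08 (standard error 0.23). Slc30a4 (ENSMUSG00000005802, chromosome 2), which encodes a vesicular zinc transporter and is mutated in the lethal milk mouse, was at 120.0 and 113 CPM in AXL KO, against 125 and 115 CPM in WT. Its groups overlapped, with a log2 difference of −0.04 and a standard error of 0.16. Without WT replicate 1 the differences were 0.11 for Slc30a1 and 0.03 for Slc30a4, so both changed sign. For Slc30a1, which like Mt1 and Mt2 is a known target of MTF-1, the difference was thus smaller than its standard error.

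The importer genes had differences in both directions, each smaller than that of Mt1. Slc39a6 (ENSMUSG00000024270, chromosome 18), also called LIV-1 and known as an oestrogen-regulated gene of human breast cancer, was at 37.0 and 41.5 CPM in AXL KO, against 45.8 and 57.1 CPM in WT. Both knockout libraries were lower, with a log2 difference of −0.39 and a standard error of 0.20. The gene overlaps Elp2 on the other strand, which had 120 and 101 CPM in AXL KO, against 98.0 and 209.5 CPM in WT. The strand setting of the counting is not given in the sources used here, so reads of the overlap cannot be told apart.

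Slc39a10 (ENSMUSG00000025986, chromosome 1) encodes a plasma membrane importer that forms a complex with SLC39A6. It was at 48.3 and 46.4 CPM in AXL KO, against 35.0 and 40.6 CPM in WT. Both knockout libraries were higher, by 0.32 on the log2 scale with a standard error of 0.19, and the value ran from 0.23 to 0.43 with 1 library left out. The sign was thus opposite to that of Slc39a6.

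Slc39a14 (ENSMUSG00000022094, chromosome 14) encodes an importer of zinc, manganese and iron that is induced by interleukin 6 in liver. It was at 57.3 and 61.2 CPM in AXL KO, against 53.6 and 54.7 CPM in WT. The groups did not overlap, but the log2 difference of 0.13 was smaller than its standard error of 0.17.

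Of the 8 genes in the fit, 3 had both AXL KO libraries below both WT libraries, namely Mt1, Mt2 and Slc39a6, and 2 had them above, namely Slc39a10 and Slc39a14. Over all 14330 tested genes these shares were 14.5% below and 14.7% above, and the groups did not overlap for 29.2%. Because the genes were chosen on this contrast, nothing is read from that count. An absolute log2 difference at least as large as that of Mt2 was seen in 0.886% of tested genes, of Mt1 in 5.88%, of Slc39a6 in 26.6% and of Slc30a4 in 87.5%. Mt1 and Mt2 were chosen for their difference in this contrast, so nothing is read from their shares either.

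**Figure D3:**
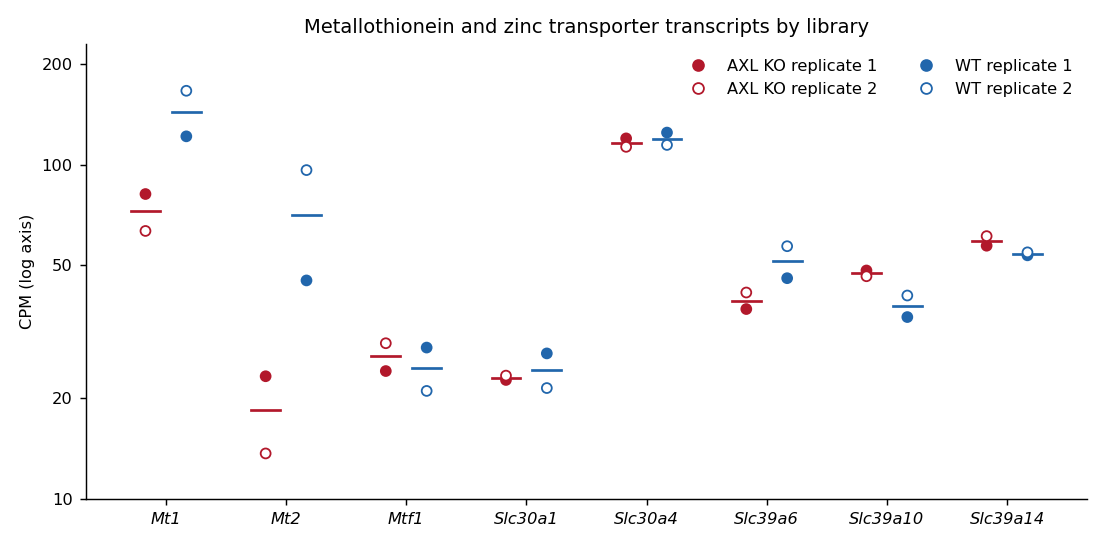
CPM on a log axis for the 8 genes in the fit. AXL KO libraries are red and WT libraries blue, filled circles are replicate 1, open circles replicate 2, and short lines are group means (n = 2 each). The Mt1 and Mt2 groups are apart, with 81.8 and 63.4 CPM in AXL KO against 122 and 167 CPM in WT for Mt1, while the Mtf1, Slc30a1 and Slc30a4 groups overlap.

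**Figure D4:**
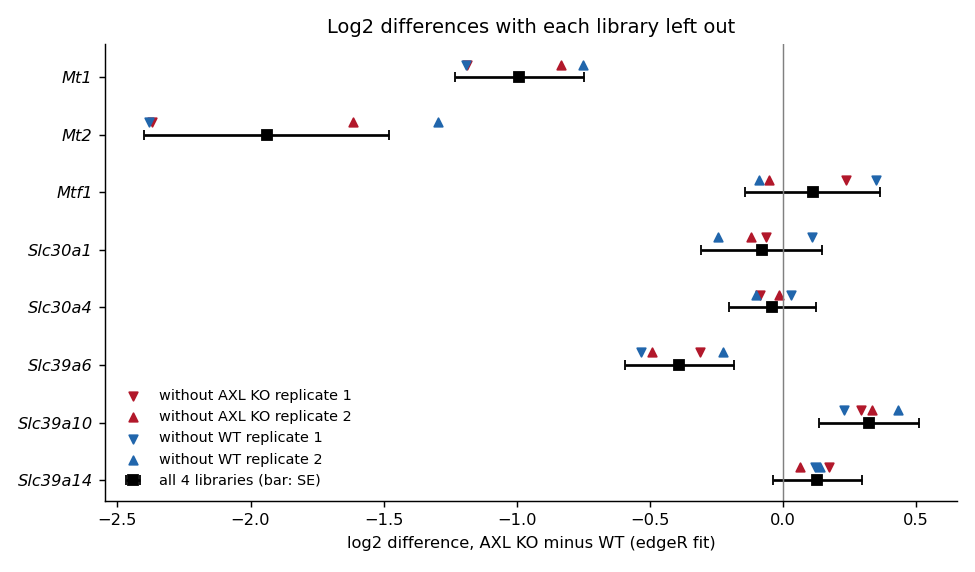
Log2 differences, AXL KO minus WT, from the edgeR fit across all genes. Black squares use all 4 libraries with bars of 1 standard error, and triangles leave out 1 library each. Mt2 lies between −2.38 and −1.29 and is the largest in size under each omission, while Mtf1, Slc30a1 and Slc30a4 change sign.

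Levels of different genes were compared per length, as RPKM, the CPM per kilobase of the first-numbered GENCODE transcript. With these transcripts Mt1 stood highest, at 149 and 115.5 RPKM in AXL KO, against 222 and 303.5 RPKM in WT. Mt2 followed at 45.6 and 26.8 RPKM in AXL KO, against 88.2 and 189 RPKM in WT. Next came Slc39a14, at 27.3 and 29.2 RPKM in AXL KO, against 25.5 and 26.1 RPKM in WT. In AXL KO the range of Mt2 thus took in that of Slc39a14, whereas in WT both Mt2 values lay above it.

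Slc30a4 came next with 20.7 to 22.9 RPKM over the 4 libraries, then Slc39a6 with 9.53 to 14.7 RPKM and Slc39a10 with 6.37 to 8.78 RPKM. Slc30a1, with 4.09 to 5.20 RPKM, and Mtf1, with 2.76 to 3.83 RPKM, were lowest of the 8 genes in the fit, which leaves out Mt3. These 5 genes did not overlap with their neighbours in the order. The order depends on the transcript taken: with the union of annotated exons Slc39a14 averaged 5.61 RPKM in AXL KO and 5.13 RPKM in WT, below Slc39a6 and Slc39a10. On the same lengths Mt1 averaged 58.3 RPKM in AXL KO and 116 RPKM in WT, and Mt2 averaged 31.4 RPKM in AXL KO and 120.3 RPKM in WT, so Mt1 was above Mt2 in AXL KO but not in WT.

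The remaining zinc transporter genes gave no call. Of 19 other SLC30 and SLC39 genes, 14 were tested by edgeR, with 8 positive and 6 negative log2 differences (49.7% of all tested genes were positive) and a median of 0.05. None passed the adjusted test, and 0 had an unadjusted p under 0.05. By DESeq2 the number called was 0 too. For 4 of them the knockout levels were both under the WT levels, and for 1 both over, where 14.5% and 14.7% of all tested genes did so. Over whole families the median was −0.04 for the 7 tested exporters and 0.11 for the 12 tested importers.

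Slc39a8, which encodes the importer most closely related to SLC39A14, was at 41.6 and 43.8 CPM in AXL KO, against 53.1 and 62.7 CPM in WT. Both knockout libraries were lower, with a log2 difference of −0.44 and a standard error of 0.19 (edgeR unadjusted p = 0.0623). Slc30a7, a Golgi zinc transporter gene, was at 94.0 and 99.0 CPM in AXL KO, against 88.7 and 76.8 CPM in WT. It was the only other tested transporter with both knockout libraries above both WT libraries. Slc30a9 was at 125 and 110 CPM in AXL KO, against 127 and 134 CPM in WT. Slc39a2 and Slc30a2, the transporter gene that loads zinc into milk, had log2 differences of −0.70 and −0.69 at levels under 4 CPM. The differences of Slc39a7, Slc39a3 and Slc30a6 were −0.26, 0.18 and 0.11, with overlapping groups. The most abundant transporter gene by CPM was Slc39a9, at 235 and 251 CPM in AXL KO, against 255 and 178 CPM in WT. Slc30a8 of pancreatic islets and Slc39a5 had 0 reads in all 4 libraries.

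**Figure D5:**
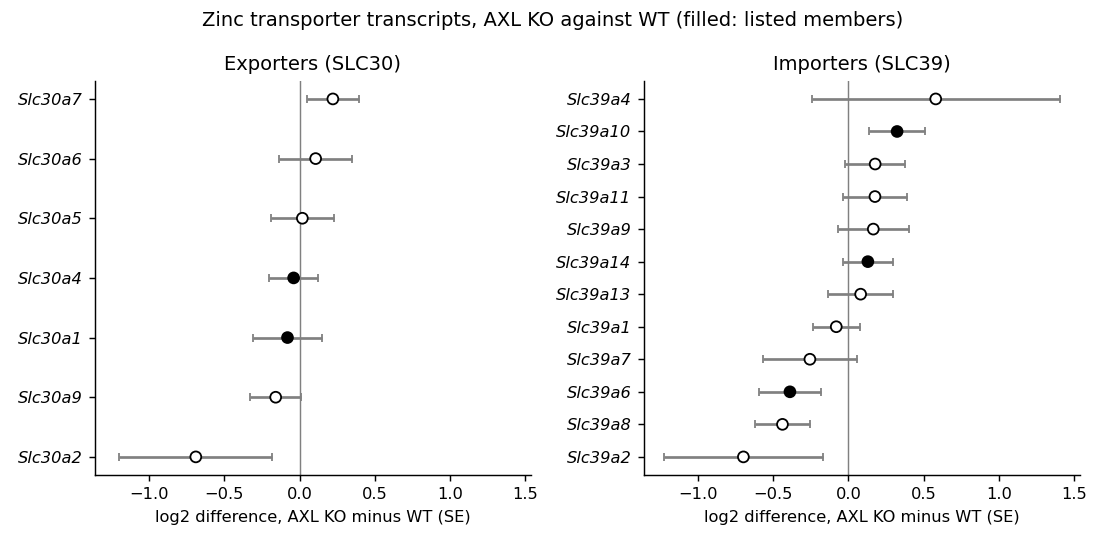
Log2 differences, AXL KO minus WT, with bars of 1 standard error for the 7 tested exporter genes (left) and 12 tested importer genes (right). Filled circles are Slc30a1, Slc30a4, Slc39a6, Slc39a10 and Slc39a14, open circles the other transporters. Both families scatter on either side of 0, from −0.69 for Slc30a2 to 0.22 for Slc30a7 and from −0.70 for Slc39a2 to 0.58 for Slc39a4.

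Other genes known to depend on MTF-1 in the mouse had differences of both signs. Of the 5 listed, 4 had a negative and 1 a positive log2 difference (median −0.63), and 0 passed edgeR's adjusted test. An unadjusted edgeR p below 0.05 was reached by 2 (2.19% of all tested genes). For 3 both knockout libraries lay below both WT libraries and for 1 above, where 14.5% and 14.7% of all tested genes did so. Gclc, which encodes the catalytic subunit for glutathione synthesis, was at 34.3 and 35.7 CPM in AXL KO, against 52.1 and 42.2 CPM in WT. Selenow, a selenoprotein gene, was higher at 98.9 and 98.8 CPM in AXL KO, against 81.9 and 51.7 CPM in WT. Pgf, a vascular growth factor gene, was at 11.5 and 12.7 CPM in AXL KO, against 21.7 and 106 CPM in WT, and Ndrg1 at 8.44 and 9.96 CPM in AXL KO, against 12.1 and 275 CPM in WT. Csrp1 had a log2 difference of −0.63 with overlapping groups. Ndrg1, Pgf and Csrp1 were highest in WT replicate 2. Ndrg1 and Pgf were the 2 genes with an unadjusted edgeR p below 0.05, with log2 differences of −3.96 and −2.39. Without WT replicate 2 these were −0.39 and −0.84.

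The low-oxygen target list set WT replicate 2 apart in the same direction as Mt1 and Mt2. All 9 tested members had negative differences with a median of −1.30, and without WT replicate 2 the median was 0.12. Ankrd37 was at 1.18 and 1.14 CPM in AXL KO, against 1.26 and 13.5 CPM in WT. The log2 differences of Adm, Pfkfb3 and Bnip3 were −2.44, −1.60 and −1.36. In WT replicate 1 the mean log2 deviation of −0.48 lay inside the range of the knockout libraries. For 3 of the 9, Adm, Pfkfb3 and Ankrd37, both knockout libraries lay below both WT libraries, where 14.5% of all tested genes did so. The part of low oxygen in the levels of Mt1 and Mt2 was not tested.

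Genes induced by glucocorticoids had differences of both signs. Of 7 tested, 3 were positive and 4 negative (median −0.12). Fkbp5 was at 61.3 and 174 CPM in AXL KO, against 103 and 240 CPM in WT, and Zbtb16 at 1.66 and 4.89 CPM in AXL KO, against 3.18 and 28.3 CPM in WT. Both were highest in WT replicate 2, as was Dusp1 (log2 difference −1.08), while Sgk1 was at 0.20. Klf9 was the 1 of the 7 whose groups did not overlap, against 29.2% of all tested genes, with a log2 difference of −0.12.

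Genes of the acute phase and interleukin 6 response had 3 positive and 3 negative differences among 6 tested (median −0.02). Stat3 was at 187 and 231 CPM in AXL KO, against 233 and 264 CPM in WT. The differences of Il6st, Il6ra and Lcn2 were 0.17, 0.15 and −0.16 with overlapping groups. Il6 itself was at 0 to 0.107 CPM.

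Genes induced by oxidants and metals were, beside the low-oxygen targets, the other list whose tested members all shared the sign of Mt1 and Mt2. All 8 had negative log2 differences (median −0.39), where 50.3% of all tested genes did, and for 5 both knockout libraries lay below both WT libraries, where 14.5% of all tested genes did so. edgeR called 0 of them, 1 had an unadjusted p below 0.05 (2.19% of all tested genes), and Hmox1 was the 1 gene DESeq2 called (0.112% of all tested genes). Hmox1, the haem oxygenase gene that metals also induce, was at 93.2 and 123 CPM in AXL KO, against 286 and 274 CPM in WT. Unlike Mt2 it was as high in WT replicate 1 as in WT replicate 2. Hspa1b had a log2 difference of −0.45 and Slc7a11 of −0.71, and Nqo1 was at 6.62 and 7.47 CPM in AXL KO, against 6.83 and 17.4 CPM in WT. Not all 8 kept the negative sign with 1 library left out. The log2 difference of Nqo1 was 0.045 without WT replicate 2. Txnrd1, at −0.10 with overlapping groups, was at 0.10 without WT replicate 1.

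Copper handling genes, whose metal metallothioneins also bind, stayed close together. Of 9 tested, 3 were positive and 6 negative with a median of −0.04. Slc31a1, the copper importer gene, was at 74.8 and 81.3 CPM in AXL KO, against 87.5 and 104.5 CPM in WT. Sod1, Cox17 and Ccs had differences of 0.26, 0.18 and −0.16.

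The cell composition of the tumours was read from marker lists. Epithelial markers summed to 3469 and 3410 CPM in AXL KO, against 3650 and 4079 CPM in WT, as measured in tissue labelled tumour. Of the 7 members, 2 had both knockout libraries below both WT libraries, where 14.5% of all tested genes did so. They were the keratin gene Krt18, at 682 and 632 CPM in AXL KO, against 690.5 and 1366 CPM in WT, and the tight junction gene Cldn7, at 59.4 and 74.9 CPM in AXL KO, against 77.95 and 86.4 CPM in WT. The log2 differences of Krt8 and Krt19 were −0.40 and 0.45 with overlapping groups. Fibroblast markers summed to 280 and 925 CPM in AXL KO, against 690 and 1001 CPM in WT, and adipocyte markers to 131 and 140 CPM in AXL KO, against 85.8 and 165 CPM in WT. Macrophage markers summed to 308 and 416 CPM in AXL KO, against 413 and 238 CPM in WT, and endothelial markers to 81.8 and 111 CPM in AXL KO, against 96.3 and 94.9 CPM in WT. T cell markers summed to 9.99 and 14.1 CPM in AXL KO, against 19.5 and 2.57 CPM in WT. In the epithelial, fibroblast and adipocyte lists WT replicate 2 had the highest sum and in the T cell and macrophage lists the lowest. Within the epithelial list, Krt8, Krt18 and Cldn7 were highest in WT replicate 2, while Epcam, Cdh1 and Cldn3 were lowest there. Epcam was at 1318 and 1342 CPM in AXL KO, against 1330 and 966 CPM in WT. None of the fibroblast, endothelial, macrophage and T cell genes had groups that did not overlap, where 29.2% of all tested genes did. Neutrophil markers summed to 3.09 to 6.21 CPM with Ly6g at 0, and keratinocyte markers to 5.03 to 5.50 CPM with Ivl at 0. The part of cell composition in the levels of Mt1 and Mt2 was not tested.

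The genes whose profile over the 4 libraries was most like that of Mt2 were Slpi, Fads6, Tox3, Ntn4 and Tmem229a. Likeness was the root mean square distance between centred log2 CPM profiles, over 12342 genes with a mean of at least 1 CPM, and it ran from 0.30 for Slpi to 0.43 for Tmem229a. Slpi, which encodes a secreted protease inhibitor, was at 0.961 and 0.87 CPM in AXL KO, against 2.06 and 3.72 CPM in WT. Fads6, a gene of the fatty acid desaturase family, was at 25.0 and 19.3 CPM in AXL KO, against 36.9 and 74.3 CPM in WT. Mt1 held place 33 in the order, at a distance of 0.52, with smaller differences between libraries than Mt2.

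Closest to Mt1 were Pde4a, Kcnab3, B3gnt8, Nlgn2 and Ppil6, at distances of 0.07 to 0.11. Pde4a, a cyclic AMP phosphodiesterase gene, was at 8.07 and 6.96 CPM in AXL KO, against 11.9 and 16.4 CPM in WT. Mt2, at the same distance of 0.52 from Mt1, held place 4431 in this order. These profiles share the 4 libraries and so the position of WT replicate 2.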

How the data were processed

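Trizol and RNeasy columns yielded the total RNA of 2 AXL KO and 2 WT tumours, per the labels' protocols. The deposited files hold 1 raw read count per Ensembl gene, not normalised, with 38293 gene rows and 5 lines that name no gene. Per the submitters' processing notes, CASAVA 1.8, TopHat2 2.0.10, HTSeq 0.5.3, DESeq2 1.4.5 and GRCm38 were used. Roles, annotation and strand setting: not given in the sources used here. The 5 lines held 5.28% to 8.11% of reads outside genes, 0.635% to 1.85% ambiguous and 23.2% to 28.1% not uniquely aligned, and stayed out of library sizes. Multiply aligned reads of close copies are thus missing from the counts.

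Identifiers were matched to GENCODE M21 on GRCm38 (36429 matched, 1864 did not). Promoter windows came from RefSeq on GRCm38.p6. Genes passing filterByExpr (14330) were scaled with TMM and tested for a genotype effect by glmQLFit (legacy=FALSE) and glmQLFTest of edgeR 4.0.16 after estimateDisp, adjusted by Benjamini-Hochberg over all of them. R was version 4.3.3. The common dispersion was 0.0961. Standard errors are the log2 difference divided by the root of F. DESeq2 1.42.0, limma-voom in limma 3.58.1, other scaling and filters, the replicate block and each library left out were alternatives. Same-numbered libraries did not deviate together (correlation over genes −0.045). Pairs of libraries differed by a chi-square of 24.2 to 120 per degree of freedom, so none repeated another. The lowest value was that of WT replicate 1 with AXL KO replicate 2. The AXL KO pair stood at 43.7 and the WT pair at 105, so libraries did not group by genotype on this measure.

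The 9 genes, the gene lists and the tests were chosen with earlier results of these data known. Named were the 9 genes, Axl, up to 4 genes with the largest difference and a mean of at least 1 CPM in each list, and the 5 profiles most like Mt2 and Mt1. Herpud1, Nup93, Gm15889, 9330175E14Rik, Gclc, Slc39a9, Slc39a4, Klf9, Slc30a8, Slc39a5, Il6, Epcam, Cdh1, Cldn3, Ly6g, Ivl and Mt4 were added after their values were seen. Gnao1 and Txnrd1 were added in the same way. For cell type markers outside the epithelial list, sums and list medians stand in place of the genes this rule names. In a simulation of this comparison over 14330 genes, edgeR found 5.97% of the 2-fold changes, 64.2% of the 4-fold changes and 98.5% of the 16-fold changes. The simulation gave every gene the common dispersion of 0.0961 and had no library that stood apart. Its shares may thus be too high for the data, where edgeR called 0 genes. Axl, 10.05-fold lower in AXL KO, was not called by edgeR, while DESeq2 with all 4 libraries called it.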

Additional observations from a re-analysis of the deposited data

How the results depend on the processing

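Of 296 values under another setting, 256 moved by less than the spread between replicates or held within 1.5 times a count. Under the alternatives that kept all libraries, the log2 difference of Mt2 ran from −1.97 to −1.89 and that of Mt1 from −1.02 to −0.98. With the replicate number as a block they were −1.89 and −0.98, and 0 genes were called, with 571 at an unadjusted p under 0.05 against 314 without the block. The number is not known to pair the libraries. DESeq2 called 16 genes, 9 higher and 7 lower, where edgeR called 0.

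With 1 library left out, edgeR called 0 to 246 genes, the highest without WT replicate 1. DESeq2 called 20 and 9 without AXL KO replicates 1 and 2, and 1075 and 29 without WT replicates 1 and 2 (settings chosen after seeing the data). The log2 difference then ran from −2.38 to −1.29 for Mt2, from −1.19 to −0.75 for Mt1 and from −1.53 to −0.87 for their sum. It ran from −0.091 to 0.35 for Mtf1, −0.25 to 0.11 for Slc30a1, −0.10 to 0.031 for Slc30a4, −0.53 to −0.22 for Slc39a6, 0.23 to 0.43 for Slc39a10 and 0.063 to 0.17 for Slc39a14. With 1 library in a group, that library is assumed to vary like the others.

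List medians ran from −0.13 to 0.031 for zinc exporters, −0.087 to 0.14 for zinc importers, −0.52 to 0.071 for glucocorticoid-induced genes, −0.31 to 0.16 for acute phase genes and −0.59 to −0.33 for oxidant and metal stress genes. For the other MTF-1 dependent genes they ran from −1.0 to −0.39, for copper genes from −0.074 to 0.083 and for low-oxygen targets from −2.07 to 0.12. Marker medians ran from −0.21 to −0.05 (epithelial), −0.22 to 0.71 (adipocyte), −1.14 to 0.18 (fibroblast), −0.35 to 0.23 (endothelial), −0.21 to 0.56 (macrophage), −0.48 to 2.73 (T cell), −2.75 to 0.54 (neutrophil) and −1.02 to −0.21 (keratinocyte). With all libraries, the endothelial median was −0.01 under the block, the T cell median −0.035 and the keratinocyte median 0.35 with a CPM of at least 1 in 2 libraries, and the neutrophil median −0.50 in limma-voom. The causes were not tested.

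With 2 libraries in each group, few 2-fold differences would be called at this depth and spread. Mt3 had too few reads for any comparison.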
